A study of Saccharomyces cerevisiae with 4 samples.

Results

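The UTP, NOP and RRP genes of budding yeast (Saccharomyces cerevisiae) are open reading frames (ORFs) whose standard symbol is one of those 3 names followed by a number. Matching the ORF names on the arrays to R64 symbols, with case ignored, found 53 of them among 6211 ORFs: 18 UTP, 17 NOP and 18 RRP genes. The rule uses names alone, although the set was put forward with earlier results of these data known. All but RRP5 had values, so 52 were tested: 18 UTP, 17 NOP and 17 RRP genes. RRP5 is a large factor needed for both ribosomal subunits, and it had no value on any array.

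The names mark early steps of ribosome production in the nucleolus. RNA polymerase I makes a long precursor RNA, and the small-subunit processome, built around the U3 small nucleolar RNA (snoRNA), folds it and cuts out the small-subunit rRNA. UTP proteins are parts of that processome, NOP (nucleolar protein) genes code for snoRNA-protein particles and assembly factors of either subunit, and RRP (rRNA processing) genes code for further assembly factors and for subunits of the RNA exosome, the complex that trims RNA from its 3′ end. In growing yeast these genes are known to be expressed together with ribosomal protein genes and to be turned down when growth slows.

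The groups were a strain labelled GCN2c, called a mutant in the sample labels and an overexpressing strain in the design text, and a wild-type strain. GCN2 codes for a kinase that senses uncharged tRNA and phosphorylates eIF2, a factor that starts translation. Both strains grew at 28 °C in YPD, a rich medium, and were collected at an absorbance (Ab660) of 0.6, with no treatment named. Strain background, the nature of the GCN2c allele and its promoter are not given in the sources used here. Each of 4 arrays compared the 2 strains in 2 colours, and the dyes were swapped: Cy5 marked GCN2c RNA on replicates 1 and 3, and Cy3 marked it on replicates 2 and 4.

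Values are log ratios, taken here as GCN2c over wild type on the log2 scale. The labels give neither the base, which is likely 2, nor the direction. The one-class test in the design text needs 1 direction on every array, and GCN2c in Cy5 on replicates 1 and 3 makes GCN2c over wild type the likely one. If the true direction is the opposite, every sign below turns round. A ratio below 0 means less of an mRNA relative to the other mRNAs of its sample, and ratios do not show the total RNA per cell. The depth of a spot is not known from ratios, so precision rests on the number of arrays.

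Some features of the arrays touch every result. Replicates 2 and 4 differed over all ORFs by an SD of 0.0638, against 0.852 between replicates 1 and 3, and were averaged and counted as 1 sample, called the averaged pair, giving n = 3. Where 3 values are listed without labels they stand for replicate 1, then replicate 3, then the averaged pair. Over 52 members replicates 2 and 4 differed by at most 0.006 except at RRP8, where they read -0.53 and -0.78. GCN2 itself stood at -0.33 ± 0.39 (SD, n = 3; limma adjusted p = 0.453), so overexpression was not seen at this spot. GCN4, the activator whose translation Gcn2 promotes, stood at 0.59 ± 0.23. ARG1 and HIS4 were checked beside them. ARG1 read 4.70, 5.12 and 4.66 (limma adjusted p = 0.00332), and HIS4 read 0.74, 0.91 and 0.36 (limma adjusted p = 0.159). GCN4, ARG1 and HIS4 were thus above 0 in both dye orientations, while GCN2 had replicates on both sides of 0. The direction of the ratios was not tested with these genes. Some alpha-cell genes set the averaged pair apart. The alpha-cell pheromone gene MF(ALPHA)1 was at -0.92 and -1.42 on replicates 1 and 3 but at 4.93 on the averaged pair, and STE3, the a-factor receptor gene of alpha cells, was at 0.17 on replicate 1 and 3.76 on the averaged pair. The other alpha-cell genes were at 1.69 for MF(ALPHA)2 and 0.07 for SAG1 on the averaged pair. As a group, the 7 genes of a cells did not set the pair apart, with medians of -0.34, -0.27 and -0.42. All 7 had a mean below 0, from -1.09 for MFA2 to -0.21 for BAR1. The part of the alpha-cell difference in the results was not tested, and counts without the averaged pair are given beside the main ones.

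Most UTP, NOP and RRP genes had less mRNA in the strain labelled GCN2c than in wild type, by small amounts. The mean log2 ratio was below 0 for 47 of 52 members, against 55.9% of all 6130 ORFs tested. The lowest was NOP7 at -0.86 and the highest NOP1 at 0.91. No member passed the threshold of limma, a linear-model test fitted over all ORFs with Benjamini-Hochberg adjusted p under 0.05. That threshold called 0.326% of ORFs lower and 1.73% higher. At an unadjusted p under 0.05, 25 members were lower and NOP1 alone was higher, where 10.7% of ORFs were lower and 10% higher. The count of 25 was 14 without replicate 1, 5 without replicate 3 and 23 without replicates 2 and 4, beside 8.05%, 3.74% and 13.1% of ORFs. One-class SAM, the test named in the design text, called no member either, while it called 0.25% of ORFs lower and 3.28% higher. Of 51 members with 3 values, 39 were below 0 on every replicate and only NOP1 was above 0 on every replicate, beside 28.1% and 18.5% of ORFs. With the sign of replicates 2 and 4 turned, 2 of 51 members were below 0 on every replicate, beside 11.1% of ORFs. Without the averaged pair, 41 of 51 members were below 0 on both remaining arrays, beside 39.3% of ORFs. In that setting limma called NOP53 lower and NOP1 higher, beside 1.33% of ORFs lower and 4.55% higher. With the 4 arrays taken as 4 replicates, 21 members passed as lower, beside 9.62% of ORFs, and NOP1 as higher, beside 7.7%. With a dye term 5 passed as lower, beside 4.4% of ORFs, and NOP1 as higher, beside 5.44%.

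**Figure D1:**
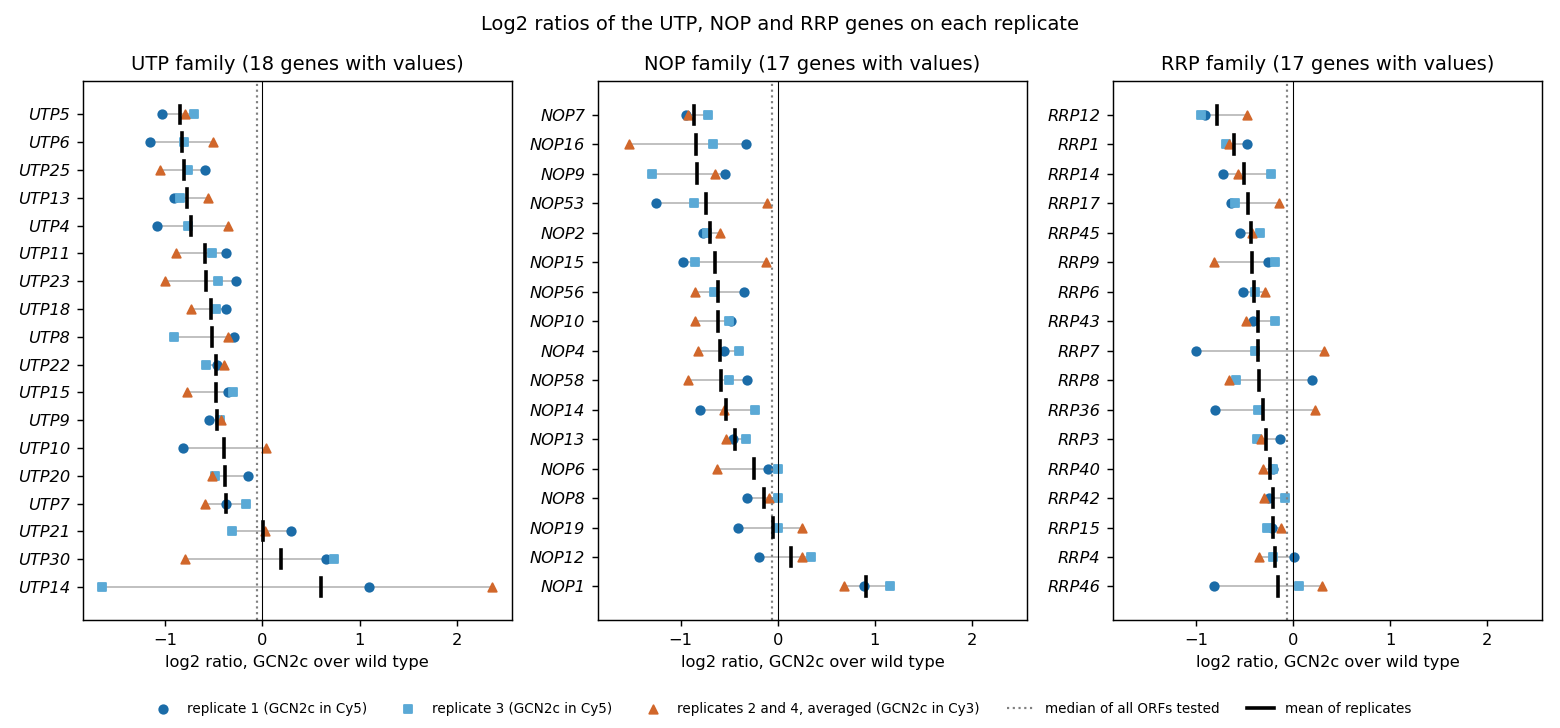
Log2 ratio (GCN2c over wild type, horizontal axis) of each UTP, NOP and RRP gene with values, ordered by its mean (black bar) within the family. Symbols are the 3 independent replicates, the grey line spans them and the dotted line is the median of all ORFs tested. Most genes lie left of 0, NOP1 lies right of 0 on every replicate, and UTP14 spans -1.65 to 2.37.

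The shift was alike on each replicate. The median member stood at -0.43, -0.44 and -0.50, which average -0.46 ± 0.04 (SD, n = 3). All other ORFs had medians of -0.03, -0.04 and -0.08 on the same replicates. With the sign of replicates 2 and 4 turned, the average of the 3 medians was -0.13. The median member lay above 15.0% of ORFs in the ranking of mean log2 ratios from the lowest, and 37 of 52 members were in the lowest 25%. The members were chosen with earlier results of these data known, so their medians and counts are descriptions and carry no test.

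The order of the members was less repeatable than their shift. Across 51 members, replicates 1 and 3 correlated at Pearson r = 0.36 and Spearman rho = 0.45. Replicate 1 and the averaged pair gave r = 0.34 and rho = 0.0062 over 52 members, and replicate 3 and the averaged pair gave r = 0.014 and rho = 0.26 over 51. UTP14 decided several of these: without it the values of r were 0.67, 0.045 and 0.43 in the same order. With NOP1 and UTP30 left out as well, r was 0.44, -0.12 and 0.39. Members on an array share its RNA and dye orientation, and they are not independent replicates.

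The 3 name families had overlapping medians. The NOP median was -0.46, -0.50 and -0.60 (mean -0.52 ± 0.07, SD, n = 3). The UTP median was -0.37, -0.53 and -0.54 (mean -0.48 ± 0.09), and the RRP median was -0.48, -0.34 and -0.33 (mean -0.38 ± 0.08). The NOP family minus the RRP family came to 0.02, -0.16 and -0.27, and the UTP family minus the RRP family to 0.10, -0.18 and -0.21, so neither difference kept its sign on every replicate. NOP minus UTP was -0.08, 0.02 and -0.06. The order of the families was thus not stable between replicates.

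The families differed in how widely their genes were spread. The SD over genes of the mean log2 ratio was 0.45 for NOP, 0.38 for UTP and 0.16 for RRP. Leaving out the highest gene of the family narrowed these values to 0.30 for NOP without NOP1 and 0.28 for UTP without UTP14, both still above that of RRP. All 17 RRP genes with values had a mean below 0, compared with 15 of 18 UTP and 15 of 17 NOP genes. At an unadjusted p under 0.05, 10 UTP, 12 NOP and 3 RRP genes were lower, beside 10.7% of ORFs. These are the 25 members whose count was 14 without replicate 1 and 5 without replicate 3.

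**Figure D2:**
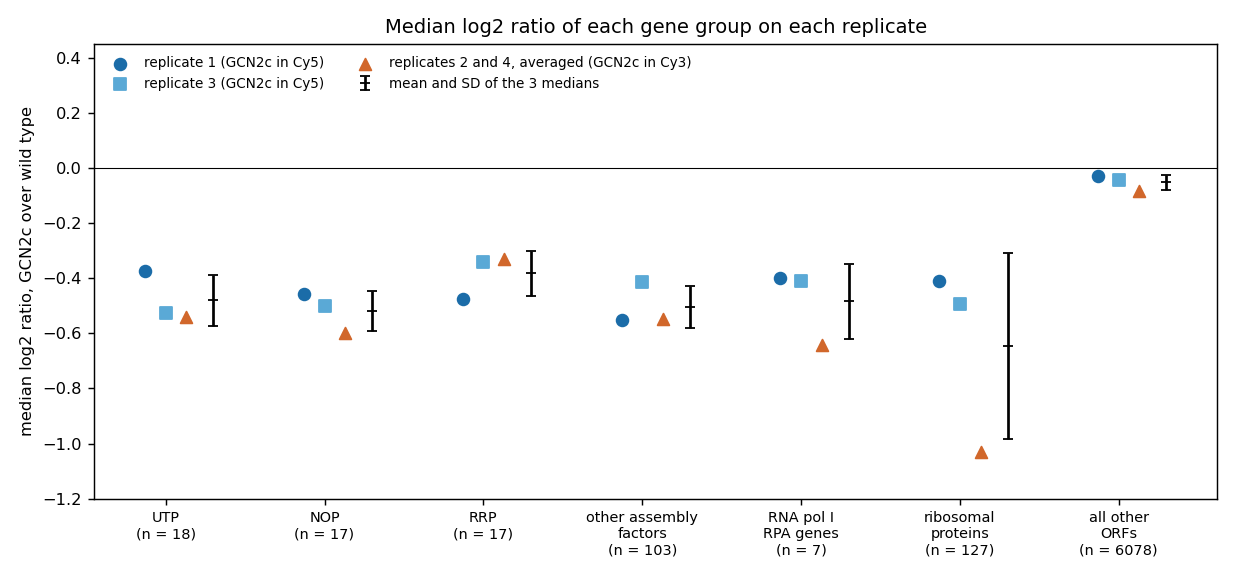
Median log2 ratio (GCN2c over wild type, vertical axis) of each gene group on each of the 3 independent replicates, with the mean and SD of the 3 medians at the right of each group and the number of genes tested below it. The UTP, NOP and RRP medians lie between -0.60 and -0.33 and overlap, ribosomal protein genes reach -1.03 on replicates 2 and 4, and all other ORFs lie near 0.

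Among UTP genes, the UtpA subcomplex was low throughout. UtpA binds the start of the precursor RNA and is tied to its transcription. UTP5 read -1.04, -0.71 and -0.80, averaging -0.85 ± 0.17 (SD, n = 3; limma adjusted p = 0.0991), and was below 0 on every replicate. UTP4 read -1.09, -0.77 and -0.36. The other UtpA members UTP8, UTP9, UTP10 and UTP15 had means between -0.52 and -0.39. UTP10 had no value on replicate 3 and rests on -0.81 and 0.03. NAN1, also called Utp17, which lacks the name in R64, stood at -0.78 ± 0.10, so 7 of 7 UtpA genes had a mean below 0.

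UtpB, the subcomplex that contacts U3 and the precursor RNA next to UtpA, was mostly low. UTP6 read -1.15, -0.81 and -0.51 (mean -0.83 ± 0.32, SD, n = 3; limma adjusted p = 0.125). UTP13 read -0.91, -0.85 and -0.56, and UTP18 had a mean of -0.53. These 3 genes were below 0 on every replicate. UTP21 was the exception, at 0.29, -0.32 and 0.03, with a mean near 0. The partners PWP2 and DIP2 had means of -0.41 and -0.50.

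UTP22 and RRP7 form a further processome subcomplex, and RRP36 acts at early cleavages. UTP22 was steady at -0.47, -0.58 and -0.40. RRP7 read -1.002, -0.39 and 0.32, and RRP36 read -0.80, -0.36 and 0.22. Both RRP genes were thus below 0 on replicates 1 and 3 and above 0 on the averaged pair.

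The remaining small-subunit factors held both low and discordant genes. UTP25, a helicase-like processome protein, read -0.59, -0.77 and -1.05 (mean -0.81 ± 0.23, SD, n = 3; limma adjusted p = 0.111). NOP9, an RNA-binding factor with Pumilio-like repeats, read -0.55, -1.30 and -0.65 (mean -0.83 ± 0.41). RRP12, which takes part in export of ribosomal subunits, read -0.91, -0.95 and -0.48 (mean -0.78 ± 0.26). All 3 were below 0 on every replicate, as were UTP7, UTP11, UTP20, UTP23, NOP6, NOP14, RRP3 and RRP9, whose means ran from -0.59 for UTP11 to -0.24 for NOP6. NOP19 stood at -0.41, 0.00 and 0.25, with a mean of -0.05.

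UTP14 and UTP30 did not follow the others on all replicates. UTP14, the activator of the processome helicase Dhr1, read 1.09 and -1.65 on replicates 1 and 3 but 2.37 on the averaged pair. Its mean of 0.60 ± 2.06 (SD, n = 3) had a 95% confidence interval from -1.27 to 2.48. The large spread left its direction unresolved, and replicates 1 and 3 disagreed in sign although they share a dye orientation. UTP30, a non-essential processome protein, read 0.65 and 0.73 on replicates 1 and 3 but -0.80 on the averaged pair, with a mean of 0.19 ± 0.86. Its sign thus differed between the dye orientations, but the averaged pair is 1 sample, so orientation and sample cannot be told apart.

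**Figure D3:**
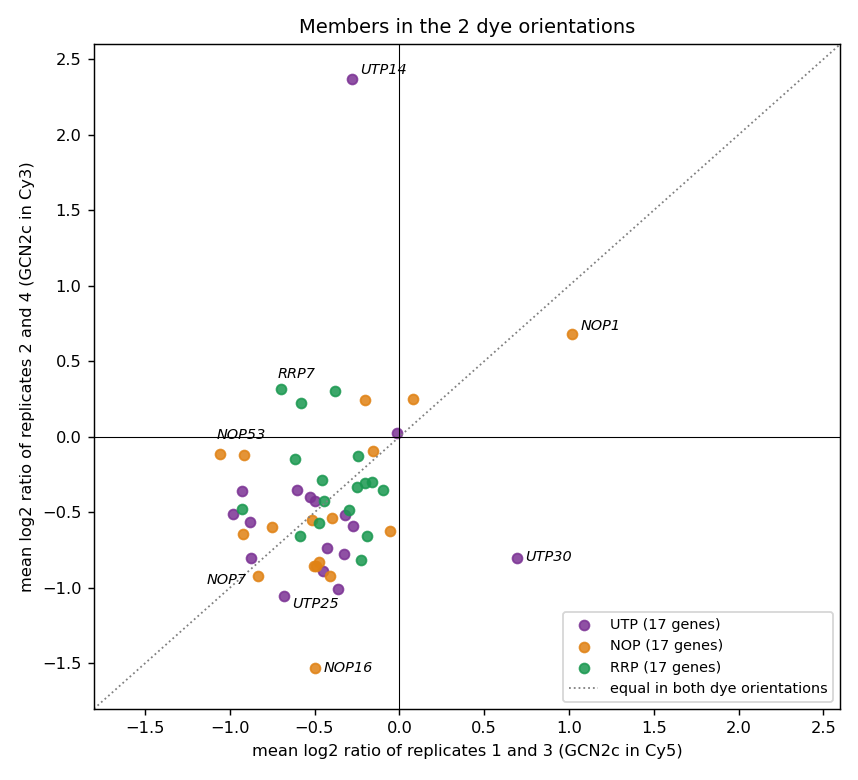
Each point is a member with values on all replicates, with the mean log2 ratio of replicates 1 and 3 (GCN2c in Cy5) on the horizontal axis and of replicates 2 and 4 (GCN2c in Cy3) on the vertical axis. Most points lie at the lower left, NOP1 lies in the upper right, and UTP14 and UTP30 lie far from the dotted line of equal values.

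The orientations differed by more than 0.5 for 13 of 51 members, or 25.5%, while 44.5% of all ORFs differed by that much. The median difference, Cy3 minus Cy5 orientation, was -0.07 over members and -0.13 over all ORFs. Differences of more than 1 were seen for 4 members, UTP14, UTP30, NOP16 and RRP7. The Cy3 orientation rests on 1 sample after averaging, so these differences cannot be told apart from differences between samples.

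NOP1 was the 1 member that stood above 0 on every replicate. It codes for fibrillarin, the methyltransferase of box C/D snoRNA particles, which guide 2′-O-methylation of rRNA. NOP1 read 0.89, 1.15 and 0.68, averaging 0.91 ± 0.24 (SD, n = 3; limma adjusted p = 0.0965), with a 95% confidence interval from 0.43 to 1.39. It lay above 94.7% of ORFs. Its limma adjusted p was 0.0465 without the averaged pair and 0.0414 with a dye term, so whether it passed depended on the fit.

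The other proteins of the same particle were on the opposite side of 0. NOP56 read -0.35, -0.66 and -0.85 and NOP58 read -0.32, -0.50 and -0.92, with means of -0.62 ± 0.26 and -0.58 ± 0.31. The partner SNU13, which is not a member by name, read -0.33, -0.63 and -1.29 (mean -0.75 ± 0.49). On each replicate NOP1 was above 0 and the other 3 core genes were below 0. In the box H/ACA particle, which guides pseudouridylation, NOP10 read -0.48, -0.50 and -0.86 (mean -0.61 ± 0.21). The pseudouridine synthase gene CBF5 read -0.37, -0.63 and -0.64. GAR1 read -0.06, -0.10 and -0.99, and NHP2 read -0.12, -0.35 and -1.18. All 4 H/ACA core genes were below 0 on every replicate.

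**Figure D4:**
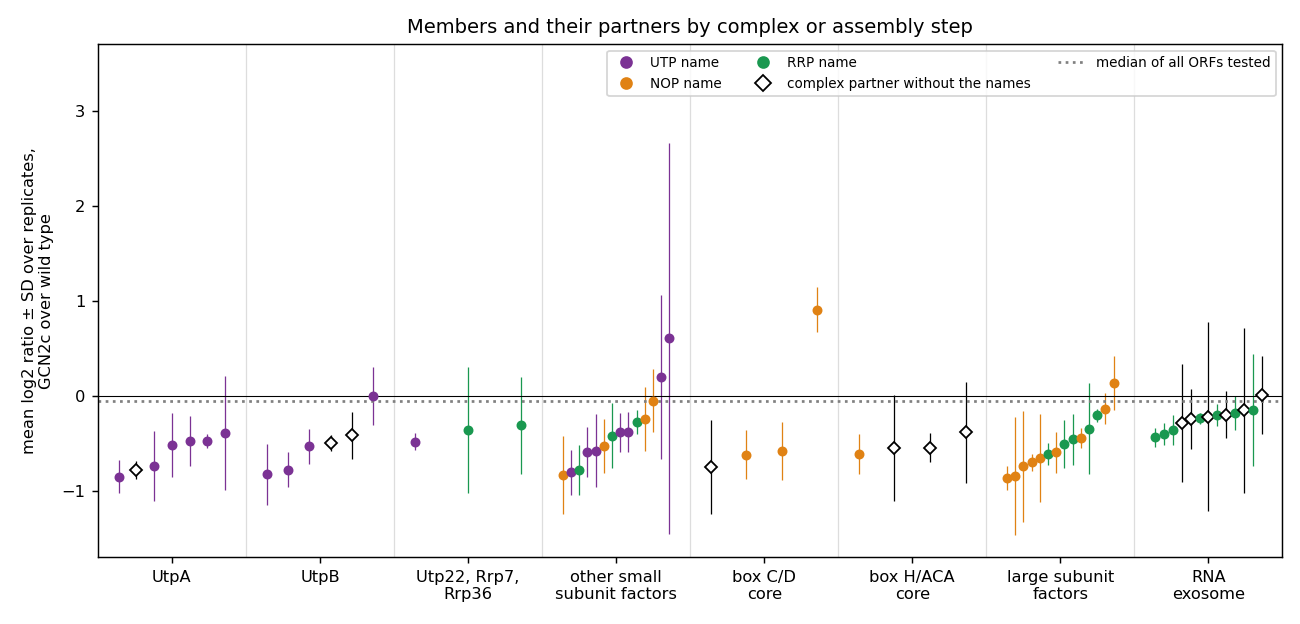
Mean log2 ratio (GCN2c over wild type, vertical axis) with its SD over replicates for each member and complex partner, grouped by complex or assembly step and ordered by mean within a group. NOP1 lies apart from the other box C/D core genes, and the exosome genes lie between -0.44 and 0.01.

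Large-subunit assembly factors bear NOP and RRP names, and 13 of 14 had a mean below 0. NOP7, the yeast pescadillo, which works with Erb1 and Ytm1, read -0.95, -0.72 and -0.92. Its mean of -0.86 ± 0.12 (SD, n = 3; limma adjusted p = 0.0893) was the lowest of all members, with a 95% confidence interval from -1.31 to -0.42. NOP2, an rRNA cytosine methyltransferase, read -0.77, -0.73 and -0.60 (mean -0.70 ± 0.09). RRP1 read -0.48, -0.69 and -0.66 (mean -0.61 ± 0.12). These 3 genes had a small spread between replicates.

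NOP53 and NOP15 were lower on replicates 1 and 3, and NOP16 on the averaged pair. NOP53, which brings the helicase Mtr4 to the precursor, read -1.26 and -0.86 on replicates 1 and 3 but -0.11 on the averaged pair. NOP15 read -0.98, -0.85 and -0.12. NOP16 read -0.33 and -0.67 on replicates 1 and 3 but -1.53 on the averaged pair, which is the lowest reading of any NOP gene on any replicate. NOP4, NOP13, RRP14, RRP15 and RRP17 were below 0 on every replicate, with means from -0.59 for NOP4 to -0.20 for RRP15. RRP15 read -0.22, -0.27 and -0.13. RRP14 read -0.72, -0.23 and -0.57, and RRP17 read -0.64, -0.59 and -0.15.

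NOP12, NOP8 and RRP8 had replicates on both sides of 0. NOP12, an RNA-binding protein of the precursor, read -0.19, 0.35 and 0.25. NOP8 read -0.32, 0.00 and -0.10. RRP8, an rRNA adenine methyltransferase, read 0.20 on replicate 1 and -0.58 on replicate 3, with -0.53 and -0.78 on replicates 2 and 4. As groups, the 14 large-subunit members had replicate medians averaging -0.55 ± 0.04 (SD, n = 3), and those of the 27 small-subunit members averaged -0.46 ± 0.06.

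As a group, the 7 exosome subunits with RRP names stood nearer to 0 than the assembly factors with RRP names. RRP4 and RRP40 code for RNA-binding cap proteins, RRP42, RRP43, RRP45 and RRP46 for subunits of the ring, and RRP6 for the nuclear exonuclease. All 7 had a mean below 0, from -0.44 for RRP45 to -0.15 for RRP46, and 0 of 7 were lower at an unadjusted p under 0.05, beside 10.7% of ORFs, a share at which a count of 0 in so few genes is no result. RRP45 read -0.55, -0.34 and -0.42, and RRP40 read -0.20, -0.21 and -0.31. RRP4 read 0.01, -0.21 and -0.35, and RRP46 read -0.81, 0.06 and 0.30, so both crossed 0. The median of these 7 subunits was -0.41, -0.21 and -0.31.

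The 10 RRP genes with values that are not exosome subunits had medians of -0.56, -0.38 and -0.40. They were lower than the exosome members on each replicate, by 0.15, 0.17 and 0.10 (mean 0.14 ± 0.04, SD, n = 3). No test was made of this difference, because the members and the split were chosen with results known. Exosome genes without an RRP symbol (CSL4, MTR3, SKI6, DIS3, LRP1 and MPP6) had means between -0.29 and 0.01, and each had replicates on both sides of 0. Their medians were -0.79, -0.25 and 0.32, so on replicate 1 they were lower than the RRP genes outside the exosome.

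Assembly factors without the 3 names had values close to those of the members. Of 103 tested, from lists of small-subunit factors, large-subunit factors and complex partners, 100 had a mean below 0, beside 55.9% of ORFs. None passed limma, beside 0.326% of ORFs lower and 1.73% higher. SAM, which scored ORFs with all 3 values, called none either, beside 0.25% lower and 3.28% higher. At an unadjusted limma p under 0.05, 45 were lower and none higher, beside 10.7% and 10% of ORFs. Their medians were -0.55, -0.41 and -0.55. PRP43, a helicase, was the lowest small-subunit factor at -1.01 ± 0.45 (SD, n = 3), and NIP7 the lowest large-subunit factor at -1.01 ± 0.07 (limma adjusted p = 0.0613). ESF1 was the highest at 1.08 from only 2 values, -0.90 on replicate 1 and 3.06 on the averaged pair.

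Neighbouring steps of ribosome production were also low. The 7 RPA genes of RNA polymerase I, which transcribes the rRNA precursor, had medians of -0.40, -0.41 and -0.64, and 6 had a mean below 0. RPA190, the largest subunit, was the exception at 0.74 ± 0.47 (SD, n = 3). The 127 ribosomal protein genes tested had medians of -0.41, -0.49 and -1.03, so they went lower than the members' -0.50 on the averaged pair and stood close to the members on replicates 1 and 3. Of 11 regulators of ribosome genes, 8 had a mean below 0, beside 55.9% of ORFs. None passed limma (0.326% of ORFs lower, 1.73% higher) or SAM (0.25% and 3.28%). At an unadjusted p under 0.05, 1 was lower, near the 10.7% of all ORFs and so no result about the regulators. IFH1, a co-activator of ribosomal protein genes, was the lowest at -0.64 and HMO1 the highest at 0.18.

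Genes of the general stress response stood mostly above 0, though not all did. The mean was above 0 for 10 of them and below 0 for 4, beside 55.9% of ORFs below 0. Those below 0 were GPH1 (-0.50, with -3.59 on the averaged pair), CTT1 (-0.23), HSP42 (-0.10) and HSP26 (-0.06). HSP104 was at 0.01. Of 14 tested, 8 were above 0 on every replicate and none was below 0 on every replicate, beside 18.5% and 28.1% of ORFs. As higher, limma called 1 of them, TFS1, beside 1.73% of ORFs, and SAM called 2, beside 3.28%. TFS1, an inhibitor of a vacuolar protease, rose by 1.599 ± 0.19 (SD, n = 3; limma adjusted p = 0.0238). YGP1, a cell wall glycoprotein gene, stood at 1.09 ± 0.12 (adjusted p = 0.0536). The part of growth state or stress in the members' shift was not tested.

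Position in the genome gave little in common. In R64 gene order no members were adjacent, and no neighbouring gene overlapped a member. The 102 other genes next to members had a median log2 ratio of -0.15, and 63 of them were below 0, beside 55.9% of ORFs. Only KTR2, a mannosyltransferase gene next to UTP30, and HPT1, a purine salvage gene next to UTP5, passed limma. That count of 2 in 102 is near the 2.06% of all ORFs called in either direction. KTR2 read 2.97, 2.79 and 2.50 and HPT1 read -2.35, -2.12 and -2.22. Among members, values were missing only for RRP5 and UTP10, at 5190 and 5310 bp. They are the longest members after UTP20 at 7482 bp, which had values on all arrays. A link between length and missing values was not tested.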

How the data were processed

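Per the labels' protocols, amino-allyl cDNA was made from 30 µg of total RNA of 50 mL cultures and labelled with Cy3 or Cy5. Spots with defects, or not above 2 times the local background in both channels, were left out. The deposited log2 ratios, 1 per ORF, were made by the authors and used unchanged. Their base, centring, background correction, scanner and direction are not given in the sources used here. ORF names were matched to the RefSeq R64 gene table (5662 of 6211, case ignored). The table gives no build, and coordinates are left out.

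Replicates 2 and 4 were averaged. limma 3.58.1 (R 4.3.3) tested the mean ratio of every ORF with values on at least 3 of 4 arrays, with an intercept alone, two-sided, and Benjamini-Hochberg adjustment over 6130 ORFs at 0.05. The script was checked on simulated data, and Python 3.11.15 made the summaries. P-values measure the spread between 3 samples that the design text calls biological replicates. Values on every replicate are given for the 4 lowest and 3 highest members of each family and for snoRNA particle genes. Some members outside this rule, such as UTP4, UTP22, NOP2, NOP15, RRP7 and RRP8, are shown in the same way. Members and lists were chosen with earlier results of these data known. Alternatives were the 4 arrays as replicates, left-out replicates, a dye term, turned arrays, scaling, filters and SAM.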

Additional observations from a re-analysis of the deposited data

How the results depend on the processing

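The count of members past the threshold was 0 under all alternatives run except 3. It was 22 with the 4 arrays as 4 replicates (21 lower, beside 9.62% of ORFs, and NOP1 higher, beside 7.7%), which counts near-identical arrays as separate. It was 6 with a dye term (NOP7, NOP16, UTP5, UTP13 and UTP25 lower, beside 4.4% of ORFs, and NOP1 higher, beside 5.44%), where the spread is that between replicates 1 and 3 alone. It was 2 without replicates 2 and 4, and 0 without any single replicate. With replicates 2 and 4 turned, limma called no ORF and left 250 at an unadjusted p under 0.05. The medians then moved to -0.13 for all members, -0.12 for UTP, -0.12 for NOP and -0.16 for RRP genes. Centring and scaling moved the median of all members to -0.42. The other medians moved by less than their SD.

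The count of members with a mean below 0 was 47 of 52, beside 55.9% of ORFs, a check chosen after seeing the data. Under the alternatives it stayed between 41 and 48, with 51 or 52 members fitted. The 41 came with replicates 2 and 4 turned, beside 46.1% of ORFs. The 48 came without replicate 3, beside 55.6% of ORFs, and without replicates 2 and 4, beside 55.8%. The count of members lower at an unadjusted limma p under 0.05 was 25, beside 10.7% of ORFs. It was 5 without replicate 3 (3.74% of ORFs) and 14 without replicate 1 (8.05%). With replicates 2 and 4 turned it was 0 (2.69%). Single members were followed for the 24 picked by rank or as snoRNA particle genes, so other members with listed replicates were not covered. Of their 288 values, 17 changed sign. With replicates 2 and 4 turned these were NOP16 (0.18), NOP58 (0.0337), NOP12 (-0.031), RRP4 (0.052), UTP21 (-0.0167) and UTP14 (-0.98). Without replicates 2 and 4, UTP21 was at -0.0115 and UTP14 at -0.28. With the 4 arrays as replicates or with a dye term, NOP19 was at 0.022 and UTP30 at -0.055. Leaving out 1 replicate at a time gave values from -0.0795 to 0.12 for NOP19, from -0.26 to 0.18 for RRP46, from -0.14 to 0.16 for UTP21 and from -0.0755 to 0.194 for UTP30. The cause was not tested. Each ratio already pairs the 2 strains of its array, and the labels give 1 group of arrays, so no further pairing was made. Few arrays, more of them with GCN2c in Cy5 than in Cy3 after averaging, and the lack of intensities limit precision.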
